A study of Mus musculus with 6 samples.

Results

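The suppressors of cytokine signalling, Socs1 to Socs7 and Cish, are 8 genes, and all 8 were found by symbol among the 43472 symbols counted in each library and were kept among the 16152 genes tested. The libraries were made from whole intervertebral discs (IVDs) of the thoracic and lumbar spine of C57B6/J mice at postnatal day 20. The mutant group, Col2Cre; Adgrg6f/f, carries floxed alleles of Adgrg6 (called Gpr126 in the sample titles), an adhesion G protein-coupled receptor, and a Cre recombinase driven by Col2a1 sequences, which are active in cartilage-forming cells and, per the study, recombine throughout the disc during embryonic development. The control group is Cre (-) littermates in the study's text, wild type in the genotype labels and Col2Cre control in the titles. Each group has 3 libraries, each a pool of discs from 2 to 3 mice, so the spread between libraries is a spread between pools, and the labels give no sex.

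Cytokine and growth hormone receptors signal through Janus kinases (JAKs), which phosphorylate STAT transcription factors, and activated STATs switch on genes that include several members of this family. The proteins then bind receptors or kinases through an SH2 domain, and through their SOCS box they recruit an Elongin and Cullin ubiquitin ligase that marks the bound protein for degradation, which closes a feedback loop. In cartilage this loop restrains cytokines of the interleukin 6 family, interferons and growth hormone, and the message of an inducible member is often read as a trace of recent signalling.

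Expression is given in CPM, counts per 1000000 counts on genes after TMM scaling of library size, and differences are log2 fold changes of mutant over control, tested in edgeR. A library held 9061491 to 12017008 counts on genes, and adjusted p-values below follow Benjamini and Hochberg over all genes tested. Cartilage genes defined the tissue, with Col2a1 at 62710 to 124100 CPM, and the notochordal genes T (129.8 to 449.8 CPM) and Krt19 (332.6 to 833.6 CPM) were present in all 6 libraries, whereas Noto, another notochordal gene, was at 0 in 5 of them. Gpr126 itself was measured at 109 ± 14.7 CPM in control and 122 ± 16.1 CPM in mutant IVDs (mean ± SD, n = 3 each), and its log2 fold change was 0.17 (SE 0.18, edgeR adjusted p = 0.849). The counter pooled reads of all its exons, floxed or not, so this level does not check the deletion.

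Of the 8 family members, 1 was higher in mutant IVDs at an unadjusted p under 0.05 and none was lower, in a comparison where edgeR placed 7.21% of all tested genes past this threshold, 2.89% higher and 4.32% lower. That member was Socs3. It was also the only member whose mutant libraries all lay outside the control range, which held for 11.4% of all genes, 5.45% in the higher and 5.96% in the lower direction. None of the 8 passed an adjusted p of 0.05 in edgeR, as was the case for all but 1 of the genes tested (0.00619%), while 1 member, again Socs3, passed it in DESeq2 (0.197% of genes with a p) and in edgeR without a filter on low counts (0.927%). The median log2 fold change over the 8 members was 0.16, beside -0.01 over all genes tested, and 6 of the 8 values were above 0, as were 48.4% of all.

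**Figure D1:**
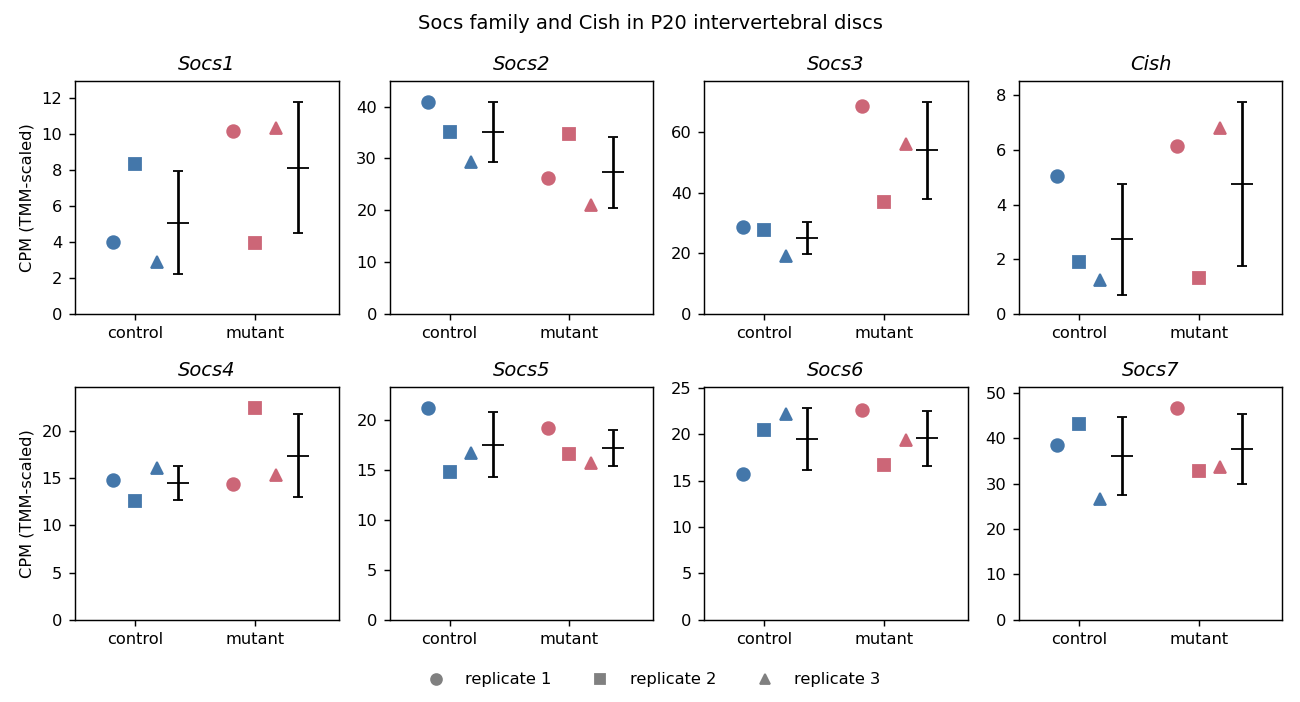
Expression of the 8 genes in CPM in each library (marker shape, replicate number; blue, control; red, mutant), with the mean and SD of the 3 libraries beside the points and each axis starting at 0. Only in the Socs3 panel do all 3 mutant points (37.0 to 68.7 CPM) lie above all 3 control points (19.0 to 28.6 CPM), while in the Socs1 and Cish panels mutant replicate 2 lies among the controls.

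Socs3 encodes the member that binds the shared receptor subunit Il6st together with JAKs and shuts off STAT3 activation by cytokines of the interleukin 6 family. It lies on chromosome 11 from 117966079 to 117970047, on the minus strand (GENCODE M21, GRCm38). The control libraries, by replicate number, were at 28.6, 27.5 and 19.0 CPM and the mutant libraries at 68.7, 37.0 and 56.0 CPM. Each mutant library was above every control library, and the nearest pair, mutant replicate 2 and control replicate 1, had separate exact 95% Clopper-Pearson intervals of 33.7 to 40.6 and 25.2 to 32.2 CPM, which cover counting error only. Mean expression was 25.03 ± 5.26 CPM in control and 53.9 ± 15.9 CPM in mutant IVDs (SD, n = 3 each), a 2.16-fold difference with a log2 fold change of 1.11 (SE 0.25, unadjusted p = 0.00121, edgeR adjusted p = 0.553). Leaving out each library in turn kept the log2 fold change between 0.93 and 1.33 and the unadjusted edgeR p between 0.000152 and 0.00575. Over the alternatives the adjusted p was lowest in edgeR without a filter on low counts (0.00113) and highest with control replicate 3 left out (0.999). It was 0.0205 in DESeq2, where 26372 genes had a p, against 16152 tested in edgeR, so tool and gene set changed together there. In limma-voom, run on the filtered genes, it was 0.2875. Within edgeR, whether Socs3 passed after adjustment therefore depended on the filter, and a dependence on the tool alone was not shown.

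The 250 bases before the RefSeq start of Socs3 are shown because Socs3 was the member past the unadjusted threshold. The sequence is from RefSeq (GRCm38.p6, chr11:117969367-117969616, minus strand, written 5′ to 3′), and capitals mark the only match in the window to TTCNNNGAA, the palindrome bound by STAT dimers, which starts 154 bases before the RefSeq start.
Socs3: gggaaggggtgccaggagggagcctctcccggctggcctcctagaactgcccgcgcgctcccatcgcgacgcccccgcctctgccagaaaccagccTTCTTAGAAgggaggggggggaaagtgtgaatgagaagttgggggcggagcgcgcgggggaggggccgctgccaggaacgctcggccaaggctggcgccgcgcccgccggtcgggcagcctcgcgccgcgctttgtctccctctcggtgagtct
Both strands were searched in windows from 250 bases before to 50 bases after each start, and 8.3% of 32851 such promoter windows hold TTCNNNGAA. The GENCODE start of Socs3 lies 681 bases further upstream, so by that annotation the printed bases lie within the gene. A match here is a string of letters and was not tested as a binding site, and its part in the Socs3 difference was not tested.

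Socs1 encodes the strongest inhibitor of JAK kinase activity in the family, induced by interferons, and lies on chromosome 16 from 10782240 to 10785536 on the minus strand. Expression was 3.96, 8.33 and 2.89 CPM in the control libraries, by replicate number, and 10.1, 3.92 and 10.3 CPM in the mutant libraries. Mutant replicates 1 and 3 were above every control, but mutant replicate 2 was below control replicates 1 and 2, so the groups overlapped. Mean expression was 5.06 ± 2.88 CPM in control and 8.12 ± 3.64 CPM in mutant IVDs (SD, n = 3 each), a log2 fold change of 0.68 (SE 0.49) that did not pass the threshold in edgeR (unadjusted p = 0.193, adjusted p = 0.788). The spread within each group was as large as the difference, with a 2.88-fold range among the controls and a 2.63-fold range among the mutants. Without mutant replicate 2 the log2 fold change of Socs1 was 1.04 (edgeR unadjusted p = 0.0481), and without control replicate 2 it was 1.23 (edgeR unadjusted p = 0.0365).

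The 250 bases before the Socs1 start (RefSeq, GRCm38.p6, chr16:10785537-10785786, minus strand, 5′ to 3′) hold no TTCNNNGAA, unlike those of Socs3. Capitals mark a run of 16 bases that contains 2 overlapping matches to GAAA, any 2 bases and GAAA, the core of the interferon-stimulated response element, starting 83 and 77 bases before the start.
Socs1: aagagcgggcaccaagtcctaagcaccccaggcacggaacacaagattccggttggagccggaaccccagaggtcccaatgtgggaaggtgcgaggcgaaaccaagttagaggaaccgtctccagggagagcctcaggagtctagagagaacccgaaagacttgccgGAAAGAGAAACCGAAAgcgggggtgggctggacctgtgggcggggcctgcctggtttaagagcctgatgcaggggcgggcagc
Among all promoter windows 3.44% hold such a pair of GAAA on either strand.

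Cish encodes the first described member of the family, an inhibitor of STAT5 signalling that competes for docking sites on receptors such as those for erythropoietin and growth hormone. It lies on chromosome 9 from 107296026 to 107302784 on the plus strand. Expression was 5.03, 1.89 and 1.25 CPM in the control libraries, by replicate number, and 6.14, 1.31 and 6.80 CPM in the mutant libraries. Mutant replicates 1 and 3 were again the highest, mutant replicate 2 was at the level of the low controls, and the groups overlapped. The total over the 6 libraries was 214 counts, the fewest of any member, with 16 to 64 per library. Mean expression was 2.72 ± 2.02 CPM in control and 4.75 ± 3.00 CPM in mutant IVDs (SD, n = 3 each), and the log2 fold change of 0.80 (SE 0.69) did not pass the threshold in edgeR (unadjusted p = 0.274, adjusted p = 0.815). Without control replicate 1, the highest control, the log2 fold change was 1.61 (edgeR unadjusted p = 0.0458). Cish is the only member whose exons overlap those of another gene, namely 479 bases of Gm17041 and 261 bases of Gm17040 on the opposite strand, to which 129 and 15 counts were assigned. Since the strand setting of the count is not given in the sources used here, reads of Cish and of these genes cannot be told apart in the shared bases.

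At the Cish start, 2 matches to TTCNNNGAA stand side by side, and the stretch that holds them is shown because STAT5 binds such tandem sites. It covers 26 bases (RefSeq, GRCm38.p6, chr9:107296656-107296681, plus strand, 5′ to 3′), with the matches in capitals at bases 1 and 12 of the RefSeq transcript. The GENCODE start of Cish, given above, lies 633 bases further upstream, so by that annotation the stretch lies within the gene.
Cish: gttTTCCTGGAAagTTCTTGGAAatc
Socs4 had no match to TTCNNNGAA, to the GAAA pair or to the other motifs searched, which were TTC and GAA spaced by any 4 bases (the STAT6 form), TGACGTCA (bound by CREB) and TGANTCA (bound by AP-1), held by 6.95%, 1.79% and 7.81% of all windows. These 3 had no match in the Socs1, Socs3 or Cish windows either. Promoters of Socs2, Socs5, Socs6 and Socs7 were not analysed here.

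Socs2 encodes a STAT5-induced inhibitor of growth hormone receptor signalling, whose loss in mice gives overgrowth of the skeleton, and it was the member with the lowest log2 fold change. Expression was 40.9, 35.1 and 29.3 CPM in the control libraries, by replicate number, and 26.3, 34.7 and 21.0 CPM in the mutant libraries. Mutant replicates 1 and 3 were below every control, but mutant replicate 2 lay inside the control range, so the groups overlapped. Mean expression was 35.1 ± 5.78 CPM in control and 27.3 ± 6.88 CPM in mutant IVDs (SD, n = 3 each), and the log2 fold change of -0.36 (SE 0.22) did not pass the threshold in edgeR (unadjusted p = 0.132, adjusted p = 0.757). Without mutant replicate 2 it was -0.55 (edgeR unadjusted p = 0.0309).

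Mutant replicate 2 therefore stood nearest to the controls in Socs1, Cish and Socs2 and was the lowest mutant library for Socs3. With that library left out, 3 members passed the unadjusted threshold in edgeR, Socs1 and Socs3 higher and Socs2 lower, where 9.76% of all genes passed in that fit (4.73% higher, 5.03% lower). With control replicate 1 left out 2 members passed (14.1% of all genes), and with control replicate 2 left out also 2 (5.59%). With any of the other libraries left out Socs3 alone passed, as with all 6.

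Socs4 to Socs7 form the less inducible branch of the family, with long N-terminal regions and roles in receptor tyrosine kinase signalling, and none of them passed the threshold. Socs4, which with Socs5 acts on the epidermal growth factor receptor, was at 14.8, 12.5 and 16.1 CPM in control and 14.3, 22.4 and 15.3 CPM in mutant libraries. Only mutant replicate 2 was above the controls, the groups overlapped, and the log2 fold change was 0.26 (SE 0.23, edgeR unadjusted p = 0.289). It was 0.05 without mutant replicate 2. Socs5 was at 21.2, 14.8 and 16.7 CPM in control and 19.2, 16.6 and 15.7 CPM in mutant libraries, with every mutant library inside the control range. Its log2 fold change was -0.03 (SE 0.21, edgeR unadjusted p = 0.888). Socs6, an adaptor that binds Kit and the insulin receptor pathway, was at 15.7, 20.4 and 22.2 CPM in control and 22.6, 16.6 and 19.3 CPM in mutant libraries. The groups overlapped almost fully, and the means were 19.5 ± 3.34 and 19.5 ± 3.01 CPM (SD, n = 3 each). Socs7, which binds insulin receptor substrates, was at 38.4, 43.1 and 26.5 CPM in control and 46.5, 32.8 and 33.7 CPM in mutant libraries, with a log2 fold change of 0.07 (SE 0.22, edgeR unadjusted p = 0.769). The sign for Socs5, Socs6 and Socs7 changed with limma-voom and with some libraries left out, so no direction is given for them.

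**Figure D2:**
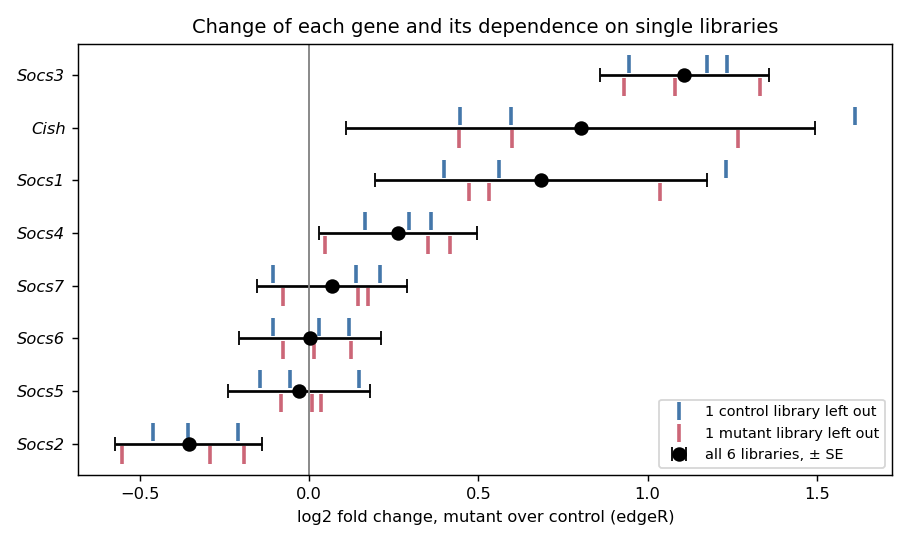
Log2 fold change of mutant over control for each gene from edgeR with all 6 libraries (black point, bar ± SE) and with 1 library left out (blue ticks, a control; red ticks, a mutant). The ticks of Socs3 stay between 0.93 and 1.33, whereas those of Cish run from 0.44 to 1.61 and those of Socs1 from 0.40 to 1.23.

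Levels of different genes were compared per length, as CPM per kilobase of merged GENCODE exons. In control IVDs Socs3 had the highest level, 8.66 CPM per kilobase, and its lowest control library (6.57) was above the highest control library of Socs7 (5.93), the next in order. After Socs7 (mean 4.96) came Socs2 (3.68), Socs5 (2.74), Socs4 (2.11), Socs1 (1.74) and Socs6 (1.71), and the control ranges of each pair of neighbours in this run overlapped. Cish was last at 0.424 CPM per kilobase, and its highest control library (0.784) was below the lowest of Socs6 (1.39). In mutant IVDs Socs3 was at 12.8 to 23.8 CPM per kilobase. Its share of the family sum per kilobase was 34.8%, 33.8% and 30.7% in control and 53.5%, 43.0% and 52.1% in mutant libraries, by replicate number, so the shares of the 2 groups did not overlap either. The share uses the same Socs3 counts as the fold change and is not a separate measurement of it. Exons of all transcripts were merged, which understates the level of genes whose shorter transcripts prevail.

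**Figure D3:**
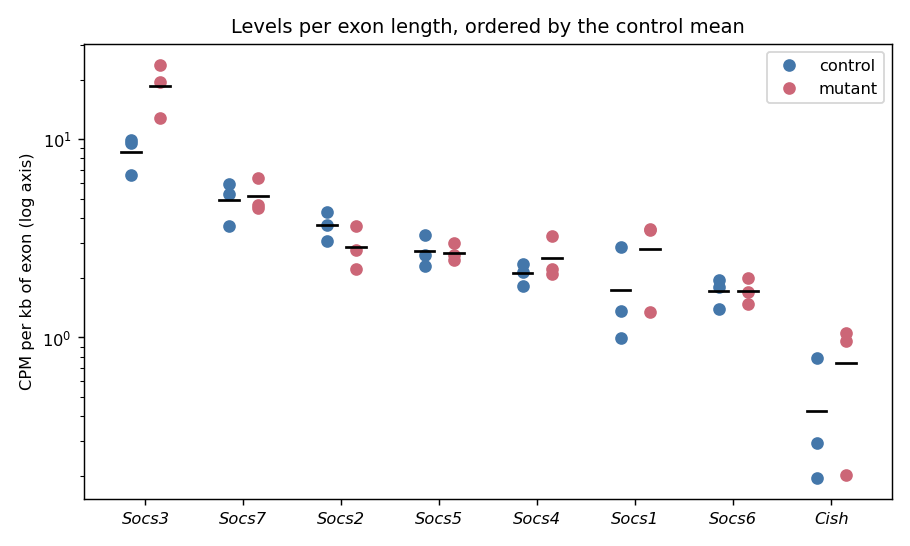
Level of each gene in CPM per kilobase of exon on a log axis, in the order of the control mean (points, libraries; horizontal lines, group means). Socs3 leads at 6.57 to 9.88 in control and 12.8 to 23.8 in mutant libraries, and Cish is last.

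The partners and opponents of the family were then described by lists of genes of the pathway. The ligase that the SOCS box recruits is built from Elongin B and C (listed as Tceb2 and Tceb1), Cul5 or Cul2, and the RING proteins Rnf7 or Rbx1. None of these 6 genes passed the unadjusted threshold, the median log2 fold change was -0.05, and the most abundant, Tceb2, was at 148.5 ± 19.3 CPM in control and 125.8 ± 11.4 CPM in mutant IVDs (log2 fold change -0.24, edgeR unadjusted p = 0.21). Other restraints on JAKs and STATs, the Pias proteins, tyrosine phosphatases and Sh2b adaptors, had 0 of 13 past the threshold and a median of 0.09. Of these 13, 1 was lower without control replicate 3 (2.01% of all genes lower), without mutant replicate 1 (2.52%) or without a filter (5.74%). Without mutant replicate 2, 1 was higher and 1 lower (4.73% and 5.03% of all genes). The median ran from -0.04 in limma-voom to 0.18 without mutant replicate 2, so no direction is given for this list. Among them the phosphatase Ptpn11 was at 69.5 ± 11.0 CPM in control and 88.0 ± 14.9 CPM in mutant IVDs (log2 fold change 0.34, edgeR unadjusted p = 0.107).

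Upstream, 0 of 8 tested ligands and 0 of 19 tested receptors passed the threshold, with medians of 0.08 and -0.01. Over 19 ligands, with the low ones kept in, the median was -0.37 both in edgeR without a filter (1 higher, 3 lower) and in DESeq2 (0 higher, 1 lower). With a library left out, ligands had 0 or 1 higher, and receptors had 2 higher and 2 lower without control replicate 1, 4 lower without mutant replicate 2 and 0 otherwise, where the fit without control replicate 1 called 5.25% of all genes higher and 8.89% lower and that without mutant replicate 2 called 5.03% lower. The ligand with the most counts, Epo (101.1 ± 16.7 CPM in control IVDs), shares 104 exon bases on the same strand with Gnb2, which was given 0 counts, so its reads may be of either gene. Of the 20 ligands listed, 12 had too few counts to be tested. Il6, the cytokine whose receptor Socs3 restrains, was among them, at 0.107, 0 and 0.625 CPM in control and 0, 0.245 and 0 CPM in mutant libraries, so that a difference in it was not detectable at this depth. Its signalling subunit Il6st was at 80.8 ± 15.6 CPM in control and 92.7 ± 5.29 CPM in mutant IVDs (log2 fold change 0.20, edgeR unadjusted p = 0.309). Ghr, the growth hormone receptor on which Socs2 acts, was at 63.8 ± 11.4 and 58.2 ± 16.1 CPM (log2 fold change -0.13, edgeR unadjusted p = 0.573).

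Of the 10 tested JAKs and STATs, 1 passed the unadjusted threshold and was higher in mutant IVDs, 9 values were above 0, and the median was 0.27. Over all genes tested, 7.21% passed the threshold, 2.89% were higher and 48.4% were above 0. The count of JAKs and STATs past the threshold moved with the setting. Without control replicate 1 it was 5 higher and 1 lower of 11 (5.25% of all genes higher, 8.89% lower). In limma-voom 4 were higher (4.54%), and without a filter 3 were higher and 1 lower of 11 (2.87% and 5.74%). In DESeq2 0 were higher and 1 lower of 11 (1.99% and 4.07%). Without mutant replicate 1 it was 1 higher and 1 lower of 11 (2.24% and 2.52%). None was called without control replicate 2, control replicate 3 or mutant replicate 3. Stat4 was too low to be tested with all 6 libraries. It was at 0.54, 1.89 and 1.485 CPM in control and 0.34, 0 and 0.11 CPM in mutant libraries. Stat5a, which drives Cish and Socs2, was at 28.2, 26.5 and 23.6 CPM in control and 38.7, 29.3 and 36.6 CPM in mutant libraries, and the groups did not overlap. Its log2 fold change was 0.42 (SE 0.18, edgeR unadjusted p = 0.0387), and it missed the threshold in DESeq2 (unadjusted p = 0.0644) and without control replicate 2, control replicate 3, mutant replicate 1 or mutant replicate 3 (edgeR unadjusted p = 0.0755 to 0.11). Stat3 was at 130.6, 80.0 and 86.8 CPM in control and 152.5, 129.6 and 116.3 CPM in mutant libraries, and the groups overlapped through control replicate 1 (log2 fold change 0.42, SE 0.22, edgeR unadjusted p = 0.0848). Without that library, which also stands apart in its muscle genes, the log2 fold change of Stat3 was 0.69 (edgeR unadjusted p = 0.00594). With every library kept, Stat3 also passed the threshold in limma-voom (limma unadjusted p = 0.0256) and in edgeR without a filter (edgeR unadjusted p = 0.0493). Stat3 and Stat5a share 72 exon bases on opposite strands.

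To set Socs3 against the transcription factor it restrains, the log2 ratio of Socs3 to Stat3 counts was taken within each library, which needs no scaling between libraries. By replicate number it was -2.19, -1.54 and -2.19 in control and -1.15, -1.81 and -1.06 in mutant libraries. The mean was -1.97 ± 0.38 in control and -1.34 ± 0.41 in mutant IVDs (SD, n = 3 each), a difference of 0.64 that the two-sided exact permutation test gave p = 0.2, where the smallest p possible with 3 against 3 libraries is 0.1. The groups overlapped, because control replicate 2, with its low Stat3, had a higher ratio than mutant replicate 2. Against the summed counts of Jak1, Jak2, Tyk2 and all listed STATs, without Jak3, the difference was 0.80 and the groups did not overlap (exact permutation p = 0.1).

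**Figure D4:**
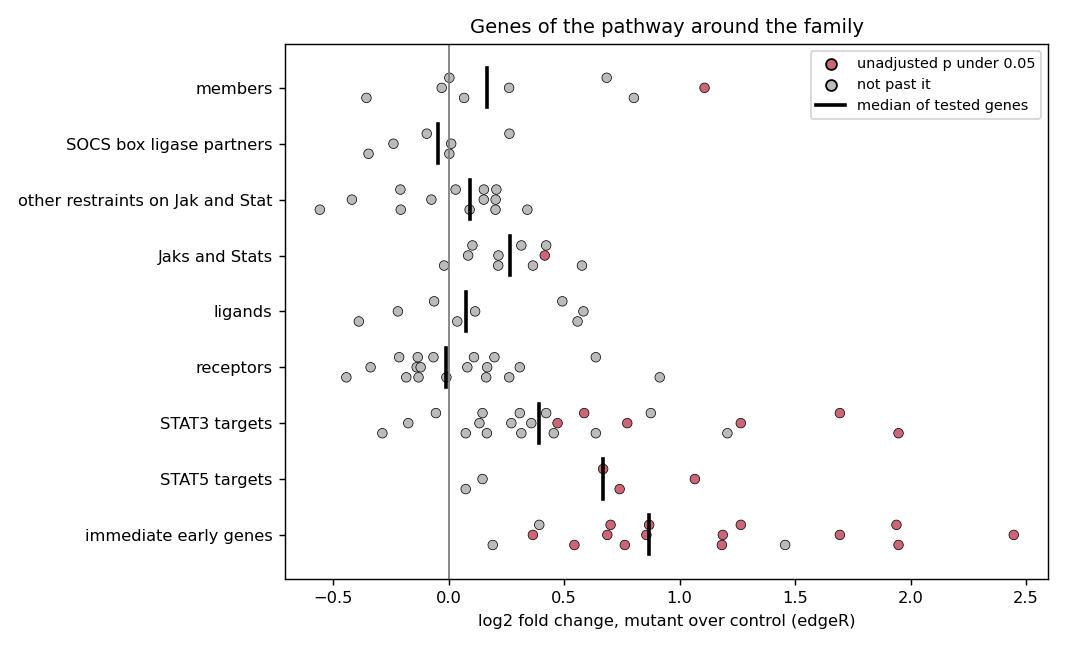
Log2 fold change of mutant over control for every tested gene of the family and of each pathway list (red, unadjusted edgeR p under 0.05; vertical black line, list median). Red points are Socs3, Stat5a, 14 of 17 immediate early genes, 6 of 22 STAT3 targets (3 of them also immediate early genes) and 3 of 5 STAT5 targets, all higher in mutant IVDs, beside 2.89% of all genes tested, and no enrichment was tested.

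Among genes known as STAT3 targets, 6 of 22 tested were higher at the unadjusted threshold and 0 lower, 19 values were above 0 and the median was 0.39. Of all genes tested, 2.89% were higher, 4.32% were lower and 48.4% were above 0. The 6 were Cebpd, Fos, Icam1, Junb, Vegfa and Zfp36, of which Fos, Junb and Zfp36 are also immediate early genes, a class induced within minutes by many stimuli. Cebpd, a transcription factor of the acute phase response, was at 15.4, 13.7 and 12.2 CPM in control and 28.6, 20.0 and 22.0 CPM in mutant libraries, without overlap (log2 fold change 0.77, SE 0.21, edgeR unadjusted p = 0.00413). It passed the threshold with any library left out, but it shares 562 exon bases with Spidr on the opposite strand. Vegfa, the endothelial growth factor, had a log2 fold change of 0.59 (edgeR unadjusted p = 0.0344) and Icam1, an adhesion molecule, 0.47 (edgeR unadjusted p = 0.0476), and both overlapped between groups and missed the threshold with 4 of the libraries left out in turn. Icam1 also missed it with every library kept in DESeq2 (unadjusted p = 0.0524) and in limma-voom (limma unadjusted p = 0.0598). The count of STAT3 targets past the threshold was 3 without control replicate 3 or mutant replicate 1, 4 without mutant replicate 3, 5 without control replicate 2, 8 of 22 without mutant replicate 2 and 9 of 23 without control replicate 1. The share of all genes called higher in these fits was 1.76%, 2.24%, 2.06%, 2.19%, 4.73% and 5.25% in the same order. Among these fits, both of the largest counts came from those that called the most genes higher. With every library kept, the count was 9 of 24 without a filter (2.87% of all genes), 7 of 22 in limma-voom (4.54%) and 5 of 24 in DESeq2 (1.99%). The remaining genes among the 3 most abundant of their lists did not pass, with log2 fold changes of -0.21 for Pias4, 0.21 for Sh2b1, 0.21 for Stat6, 0.10 for Stat5b, 0.56 for Thpo, 0.04 for Clcf1, 0.08 for Il11ra1, 0.31 for Mcl1, 0.01 for Rnf7 and 0.0028 for Rbx1. The acute phase genes Hp, Lrg1, Lcn2 and Serpina3n were tested and did not pass.

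All 17 immediate early genes had log2 fold changes above 0, 14 passed the unadjusted threshold, 5 had groups that did not overlap, and the median was 0.87. Of all genes tested, 48.4% were above 0, 2.89% were called higher and 5.45% had separate groups in the higher direction. Jun, a subunit of AP-1, was at 120.2, 80.2 and 71.0 CPM in control and 277.9, 120.2 and 219.6 CPM in mutant libraries, with mutant replicate 2 level with control replicate 1 at this precision (log2 fold change 1.19, edgeR unadjusted p = 0.00334). Fosb (2.45), Fos (1.95), Egr1 (1.94) and Zfp36 (1.69) had the highest log2 fold changes, and mutant replicate 1 was the highest library for each of them. Without it their values were 1.14, 0.97, 0.92 and 1.16, Egr1 missed the threshold (edgeR unadjusted p = 0.0607), and Egr1 was then below Jun (0.94). The other genes past the threshold had log2 fold changes of 1.18 for Klf2, 0.87 for Btg2, 0.86 for Ier2, 0.76 for Atf3, 0.70 for Ier3, 0.69 for Klf6, 0.54 for Dusp1 and 0.36 for Nr4a1. For Junb (1.27) the other 2 mutant libraries, at 37.1 and 44.2 CPM, were near the controls (34.5 to 38.2 CPM), against 178.7 CPM in mutant replicate 1. The count past the threshold was 7 without mutant replicate 1, 8 without control replicate 2 or control replicate 3, and 9 without mutant replicate 3, where 2.24%, 2.19%, 1.76% and 2.06% of all genes were called higher. It was 13 without control replicate 1 (5.25% of all genes) and 13 without mutant replicate 2 (4.73%). With every library kept it was 13 without a filter (2.87%), 12 in DESeq2 (1.99%) and 11 in limma-voom (4.54%). Mutant replicate 1 also had the largest share of reads that were not aligned, 18.9% against at most 15.2% in the other libraries, and the part of this in its values was not tested. The summed level of these genes was 941.4, 798 and 725 CPM in the control libraries, by replicate number, and 2234, 1060 and 1438 CPM in the mutant libraries. Socs3, which is not in the list, ranked the 6 libraries in the same order, from mutant replicate 1 down to control replicate 3. The part of this shared shift in the Socs3 difference was not tested.

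The STAT5 targets, which bear on Cish and Socs2, had 3 of 5 tested genes higher at the unadjusted threshold and 0 lower, with a median of 0.67. Of all genes tested, 2.89% were higher and 4.32% lower. Igfals, which carries Igf1 in the blood, was too low to be tested with all 6 libraries (57 counts), and at 2.03, 0.67 and 1.80 CPM in control and 0.34, 0.16 and 0.43 CPM in mutant libraries its values ran the other way. The count of higher genes was 3 under every alternative, but 1 lower gene was added without a filter, in DESeq2, and without control replicate 2 or mutant replicate 3. In these fits 5.74%, 4.07%, 3.4% and 3.04% of all genes were lower and 2.87%, 1.99%, 2.19% and 2.06% higher, in the same order. The median was 0.16 over 7 genes in DESeq2 and in edgeR without a filter, and 0.37 to 0.69 over 5 or 6 genes with a library left out. Igf1, the growth factor that mediates growth hormone action, was at 39.9, 22.0 and 30.0 CPM in control and 65.1, 73.2 and 54.2 CPM in mutant libraries. Every mutant library was above every control (log2 fold change 1.07, SE 0.23, edgeR unadjusted p = 0.000809). Bcl6, a transcriptional repressor, went from 72.3 ± 7.65 to 114.9 ± 9.62 CPM (log2 fold change 0.67, edgeR unadjusted p = 0.00256), and Ccnd2, a D-type cyclin, from 106.4 ± 26.8 to 177.7 ± 17.5 CPM (0.74, edgeR unadjusted p = 0.00559), both without overlap. These 3 passed the threshold with any library left out, and Bcl2l1 (0.07) and Pim1 did not pass it. Mutant replicate 2 was the highest library for Igf1 and Ccnd2, whereas for Cish it was the lowest mutant library.

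Genes whose levels followed the members over the 6 libraries were found by the root mean square difference of centred log2 CPM, as a description. For Socs3, whose own SD over the libraries was 0.63, these were Junos (difference 0.097), a noncoding gene antisense to Jun with which it shares 232 exon bases, Gm9905 (0.110) and Bhlhe40 (0.126). Bhlhe40, a transcriptional repressor, was at 38.3, 30.0 and 25.4 CPM in control and 93.8, 47.3 and 63.4 CPM in mutant libraries, and its separation of the groups follows from its choice as a gene like Socs3 and is not a result of its own. Gm9905 shares 531 exon bases with Mettl9 on the opposite strand. For Socs1 the nearest were Gm12426 (0.199), Ier5 (0.202) and Gm6556 (0.208), all high in control replicate 2 and in mutant replicates 1 and 3. For Socs2 they were Cd59a (0.061), Riiad1 (0.077) and Aasdh (0.088), and for Cish, at larger distances, Gm15440 (0.259), Gbx2 (0.275) and 2610305D13Rik (0.333).

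In bulk discs, fewer cells of a type and less RNA per cell cannot be told apart, and several marker lists differed between libraries. With all 6 libraries edgeR called 2.89% of all genes higher and 4.32% lower. Tendon and outer annulus genes had 3 of 6 higher in mutant IVDs at the unadjusted threshold, with summed levels of 6763 to 16890 CPM in control and 15300 to 25260 CPM in mutant libraries. Neutrophil precursor genes had 2 of 9 higher (16.3 to 60.7 and 34.3 to 157.6 CPM, Mmp8 too low to be tested), macrophage genes 1 of 8 (71.2 to 97.0 and 84.1 to 174.8 CPM), and red blood cell precursor genes 1 of 9 (40.6 to 345 and 215.8 to 454.7 CPM). For red blood cell precursors the count was 6 without control replicate 1 (median 2.05), 6 in limma-voom and 7 without a filter, beside 5.25%, 4.54% and 2.87% of all genes called higher in these fits. For neutrophil precursors it was 5 without control replicate 3, without mutant replicate 3 or without a filter, and 1 without mutant replicate 1. For macrophages it was 3 without mutant replicate 2 and 0 without control replicate 2, control replicate 3 or mutant replicate 1. Of all genes, the fits that left out a library called 1.76% (without control replicate 3) to 5.25% (without control replicate 1) higher. Neutrophil precursor and macrophage sums were highest in mutant replicate 1, the library with the highest Socs3, and in mutant replicate 3 they were at 34.3 and 101.3 CPM. Lymphocyte genes were near 0, with 2 of 8 tested and none past the threshold, and endothelial genes had 0 of 7, but 5 of 7 were higher without control replicate 1 (median 0.63) and 4 of 7 in limma-voom. Of the neuron and glia genes 1 of 6 was higher (216.3 to 1651 and 905 to 3562 CPM; 3 without control replicate 2, mutant replicate 3 or a filter), with Tubb3 at 0 in every library. Osteoblast genes had 2 of 5 higher (343.9 to 569.9 and 447.9 to 718.4 CPM). Chondrocyte genes had 2 of 9 lower, but 0 when control replicate 1 or either of mutant replicates 2 and 3 was left out. Of all genes, 8.89%, 5.03% and 3.04% were lower in these fits, in the same order. Adipocyte (0 of 4) and nucleus pulposus genes (0 of 6) had none past the threshold. For nucleus pulposus genes 1 was higher without a filter, in DESeq2, in limma-voom, and without control replicate 3 or mutant replicate 2, and the median ran from -0.23 to 0.49 with a library left out. The part of these cells in the family's values was not tested. Skeletal muscle genes were at 4074 CPM in control replicate 1 and at 70.6 to 156.3 CPM in the other libraries, and the 8 genes passed the unadjusted threshold as lower in mutant IVDs through that library. Without it, 3 of the 8 were higher, 0 were lower and the median was 0.67, and limma-voom called 0 with all 6 libraries. Without control replicate 1 the log2 fold change of Socs3 was 1.24 (edgeR unadjusted p = 0.00128).

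**Figure D5:**
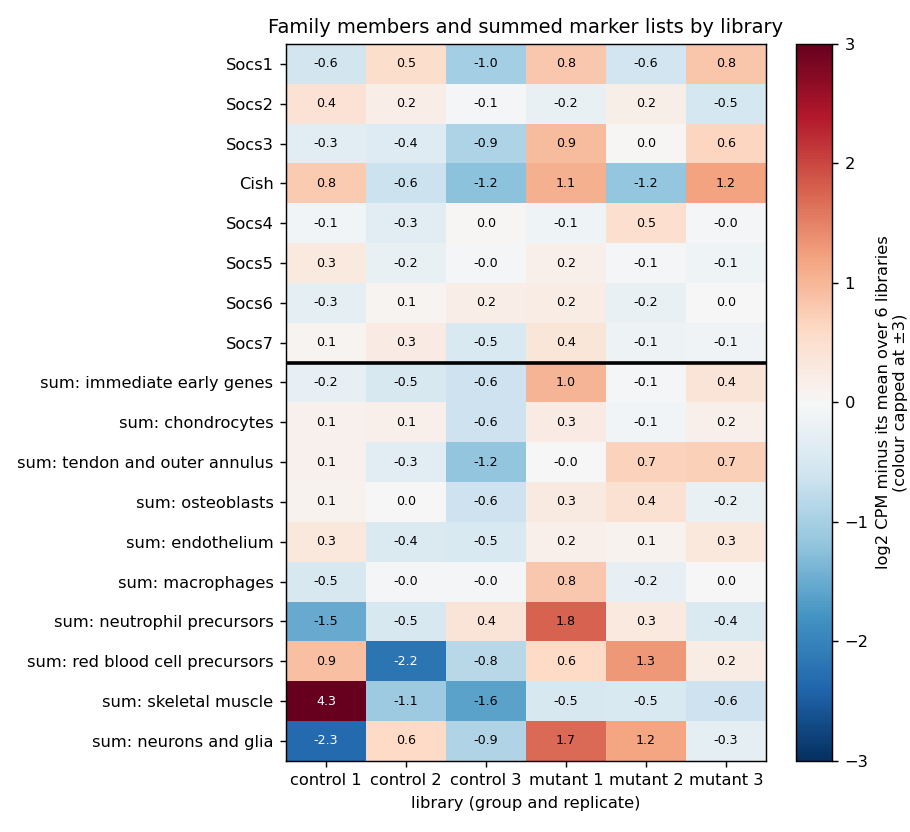
Centred log2 CPM (value minus its mean over the 6 libraries, colour and number) of the 8 genes and of the summed marker lists in each library. Socs3 and the immediate early genes are highest in mutant replicate 1 and lowest in control replicate 3, and muscle genes stand out in control replicate 1.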

How the data were processed

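Poly(A) RNA of 6 libraries, 3 control and 3 mutant, was sequenced in paired ends. For each library the authors deposited raw counts per gene symbol, without normalization. The methods name Cutadapt, FastQC and HISAT2 with GRCm38.88, whereas the submitters' processing notes name STAR 2.5.3a, HTSeq and DESeq2, so the aligner behind the counts is uncertain, and the strand setting is not given in the sources used here. Reads without a feature (39.4% to 43.3%) or not aligned (12.0% to 18.9%) were left out of library sizes, and counts on genes were 40.4% to 44.2% of all. A deposited table of the authors' own comparison, with fold changes and p-values for chosen genes, was not used.

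Counts were compared in R 4.3.3 with edgeR 4.0.16 (TMM, filterByExpr at a count minimum of 10, quasi-likelihood F test), p-values were adjusted by Benjamini-Hochberg for 16152 genes and a threshold of 0.05 was set on the unadjusted and on the adjusted p. The test was tested on simulated data. Alternatives were RLE size factors, no filter, DESeq2 1.42.0 with no prior, a block for replicate numbers, limma-voom (limma 3.58.1) with quality weights, and leaving out each library. Log2 CPM used a prior count of 2. Intervals of single libraries are exact 95% Clopper-Pearson intervals, and without molecular identifiers they cover counting error only.

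The members and the gene lists were chosen with earlier results of these data known. Genes of the pathway lists were given values where they passed the unadjusted threshold or were among the 3 with the highest mean CPM of their list, and the 3 genes most like Socs1, Socs2, Socs3 and Cish were named. A few other genes (Il6, Stat4, Hp, Lrg1, Lcn2, Serpina3n, Pim1, Igfals and single markers) were named after their values were seen. Results of 1 further gene list are not reported here. Motifs were searched in RefSeq promoter windows, which were at hand for Cish, Socs1, Socs3 and Socs4.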

Additional observations from a re-analysis of the deposited data

How the results depend on the processing

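Socs3 kept its direction and an unadjusted p under 0.05 under every alternative run. The 1164 genes past the unadjusted threshold became 2276 without a filter on low counts, and 618 (without control replicate 3) to 2427 (without control replicate 1) with a library left out. The 1 gene past the adjusted threshold became 245 without a filter, 52 in DESeq2, 0 in limma-voom and 0 with the replicate block in edgeR, and 0 to 31 with a library left out. Members past the unadjusted threshold numbered 1 to 3 with a library left out, and 1 member, Socs3, passed the adjusted threshold without a filter and 1, also Socs3, in DESeq2. Correlations of deviations between same-numbered libraries were 0.159, -0.132 and 0.101, within the range between other control and mutant libraries (-0.265 to 0.179). These values show no pairing by replicate number, but with 3 pools a group they cannot exclude it. The block gave 1002 genes past the unadjusted threshold (2.45% higher, 3.75% lower) and 9 immediate early genes in place of 14. It gave an edgeR unadjusted p of 0.0684 for Stat5a and 0.0732 for Icam1. For the Socs3 to Stat3 ratio, an exact sign-flip test over same-numbered pairs gave p = 0.5. The smallest p possible in that test is larger than in the unpaired permutation test. With the block, higher genes numbered 3 for neurons and glia and 1 each for nucleus pulposus, endothelium, neutrophil precursors and receptors. They numbered 0 for macrophages and for JAKs and STATs, and 0 muscle genes were lower. The sign of the log2 fold change changed in limma-voom for Socs5 (0.03302), Socs6 (-0.02953), Socs7 (-0.01163) and Rbx1 (-0.0296), and for Rbx1 with the block (-0.005499). With a library left out it ranged over 0 for Socs5 (-0.1442 to 0.1457), Socs6 (-0.1076 to 0.1241), Socs7 (-0.1075 to 0.2104), Rbx1 (-0.09895 to 0.09793), Rnf7 (-0.09448 to 0.137), Stat5b (-0.01917 to 0.3322), Bcl2l1 (-0.002634 to 0.169), Clcf1 (-0.02136 to 0.18), Epo (-0.0299 to 0.2758) and Ghr (-0.3414 to 0.08239). Over 58 named genes and 11 alternatives, 536 results stayed on the same side of the threshold with the same sign, 60 lost and 16 gained the unadjusted threshold, and 26 changed sign. The causes were not tested. With 3 pools a group and 214 to 383 counts over all libraries for Cish and Socs1, changes of the size estimated for these genes could not be separated from the spread between pools.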
